A study of Mus musculus with 18 samples.

Results

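The endoplasmic reticulum (ER) stress and integrated stress response genes were followed in mouse 4T1 mammary carcinoma cells with and without 17-DMAG, a geldanamycin derivative that blocks the chaperone HSP90. The set was a list of 36 gene symbols. All 36 were found among the 24421 genes in the table and were tested. The list was fixed by name and not by expression level, but it was chosen with earlier results of these data known. It was divided by function into 23 ER genes (11 chaperones and cofactors, 4 protein disulfide isomerases, 4 genes of ER-associated degradation, and 4 stress sensors or transcription factors) and 13 integrated stress response genes (3 transcription factors, 5 regulators or effectors, and 5 enzymes of amino acid and one-carbon metabolism).

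Total RNA sequencing was performed on 3 cell populations, each with and without 17-DMAG at 1.5 μM, which gave 6 groups of 3 libraries that the series text calls biological replicates. The populations were the parental 4T1 line and 2 populations, 4T1R1 and 4T1R2, that had been selected from it for 17-DMAG resistance by repeated rounds of drug exposure. Each resistant population was thus a single selection event, and its 3 libraries did not sample further selections. The sample records give the exposure before RNA isolation as 48 h, whereas the series text gives 2 h, and the conflict could not be settled here.

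In the ER lumen, the HSP70-type chaperone BiP, the HSP90 paralog GRP94, lectin chaperones and disulfide isomerases fold secreted and membrane proteins. When unfolded proteins accumulate, the sensors IRE1, ATF6 and PERK raise the transcription of these chaperones and of the degradation machinery. PERK also phosphorylates the initiation factor eIF2α, as do kinases that sense amino acid lack, viral RNA and heme lack, and this arm, the integrated stress response, lowers bulk translation while increasing that of the transcription factor ATF4, which drives genes of amino acid synthesis and import, redox balance and cell death. In tumor cells both arms have been studied as routes by which secretory load and nutrient lack are tolerated.

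The 2 arms differ in the promoter elements they use. The ER stress element (CCAAT and CCACG with 9 free bases between them) is bound by NF-Y together with ATF6, and the CCAAT-enhancer-binding protein and ATF response element, CARE (TGATGNAA), is bound by ATF4 with a C/EBP partner. Both were searched on both strands in the 300-base window from 250 bases before to 50 bases after the RefSeq transcription start (GRCm38.p6), which was found for 33 of the 36 genes. The ER stress element occurred in 8 of 20 ER genes with a window (Hspa5, Hsp90b1, Calr, Canx, Dnajc3, Creld2, Pdia6 and Syvn1), in no window of the 13 integrated stress response genes, and in 0.137% of the windows of all 27025 genes. CARE occurred in Trib3, Chac1 and Asns among the 13 integrated stress response genes, in Herpud1 as the single ER gene, and in 4.51% of all windows. Neither the UPR element (TGACGTGG, in 0.714% of all windows) nor 1 spelling of the heat shock element (GAA, TTC and GAA, each 2 bases apart, in 0.662%) was found in a window of the 36 genes, which says only that these letters are not in the windows. The Trib3 match lay 14 to 21 bases after the start site and is not shown. Promoter segments with a match before the start site are shown for 5 genes described below. They are written 5′ to 3′ on the strand of the gene, with the matched letters in capitals (a match on the opposite strand reads as the reverse complement).
Hspa5 (BiP), chr2:34772020-34772048, plus strand: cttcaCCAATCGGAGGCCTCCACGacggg
Hsp90b1 (GRP94), chr10:86705503-86705686, minus strand: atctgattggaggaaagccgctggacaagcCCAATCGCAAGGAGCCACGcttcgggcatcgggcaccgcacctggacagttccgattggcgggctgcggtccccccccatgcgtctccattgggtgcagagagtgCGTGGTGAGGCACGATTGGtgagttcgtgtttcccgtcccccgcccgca
Herpud1, chr8:94386287-94386354, plus strand: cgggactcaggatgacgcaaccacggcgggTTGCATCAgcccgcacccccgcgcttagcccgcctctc
Chac1, chr2:119351019-119351086, plus strand: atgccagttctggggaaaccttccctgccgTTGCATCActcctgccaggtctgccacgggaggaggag
Asns, chr6:7693215-7693242, minus strand: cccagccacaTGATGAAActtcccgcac
The Hspa5 match began 65 bases before the start site, the 2 Hsp90b1 matches 212 and 107 bases before it, and the Herpud1, Chac1 and Asns matches 112, 193 and 23 bases before it. A match is a description of the sequence and not evidence of binding.

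Libraries held 23354461 to 55094630 counts. In treated 4T1, the counts of replicates 1 and 2 were not distinguishable beyond sampling noise (a chi-square per gene of 1.1, against 2.04 to 2.22 for the other 17 pairs within groups), so they were averaged and counted as 1 sample, which left n = 2 for treated 4T1 and n = 3 elsewhere. The 8 epithelial markers were detected in every group, with a summed level in CPM (counts scaled to a common library total) of 2070 to 2090 in untreated and 1970 in treated 4T1, 1400 to 1480 in 4T1R1 and 1610 to 1660 in 4T1R2. The sum was thus lower in both resistant populations than in 4T1, and its part in the differences between populations was not tested. Cdh1 went against the sum, at 10970 to 11320 normalised counts (defined below) in untreated 4T1, 10920 to 11410 in untreated 4T1R1 and 13370 to 13580 in untreated 4T1R2. The other epithelial markers were lower in both untreated resistant populations than in untreated 4T1. Fibroblast, leukocyte and endothelial markers summed to at most 33.7, 7.21 and 0.566 CPM, and the fibroblast marker Lum and the endothelial marker Emcn were at 0 in all libraries. The library names of 4T1R1 form a numbering run apart from those of 4T1 and 4T1R2, so a difference between 4T1R1 and either of the others cannot be told apart from that run, whereas each response to 17-DMAG lies within 1 run. Values below are normalised read counts (counts scaled by TMM to the mean library size), changes are log2 fold changes with their standard error, and a gene was called when its Benjamini-Hochberg adjusted p from edgeR's quasi-likelihood test over 13507 genes was under 0.05. Treated 4T1 is given as the mean of replicates 1 and 2, then replicate 3.

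To ask how the drug acted on each arm, treated and untreated cells were first compared within the parental line. The integrated stress response genes rose and the ER genes split. These are levels in bulk cultures, where fewer cells expressing a gene and less RNA per cell cannot be told apart. Of 13 integrated stress response genes, 11 rose and the remaining Ddit4 and Ppp1r15a did not pass the test, with a median log2 fold change of 1.14, where 18.4% of all 13507 genes were called higher. Of 23 ER genes, 6 rose, 8 fell and 9 did not pass, with a median of -0.027, where 17.9% of all genes were called lower and 36.4% were called in either direction, and the median over all genes was 0.000645. With total counts as the only scaling the median of all genes moved to -0.114, 1193 genes were then called higher and 4322 lower (2490 and 2423 with TMM), and changes of the ER genes of about that size depend on the scaling.

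**Figure D1:**
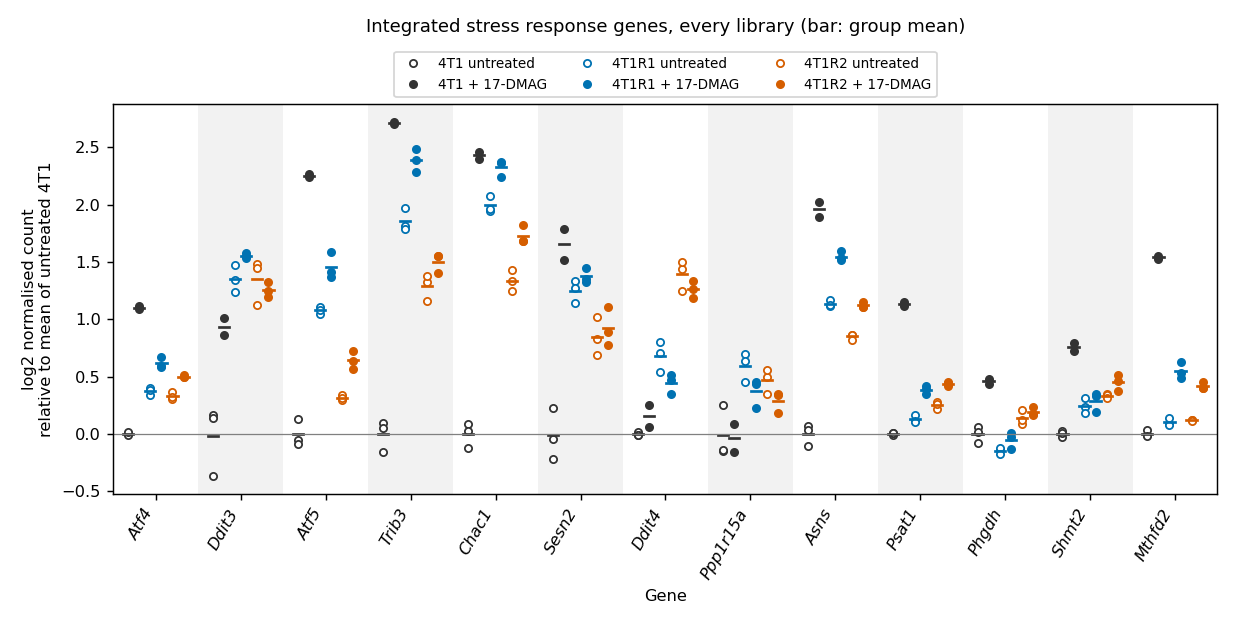
Every library of the 13 integrated stress response genes, as log2 normalised count relative to the mean of untreated 4T1 (open symbols untreated, filled symbols 17-DMAG, bar the group mean). Treated 4T1 lies highest for 10 genes, while for Ddit3, Ddit4 and Ppp1r15a the untreated resistant libraries lie above it.

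Among the transcription factors of the integrated stress response, Atf4, its central activator, had 4836, 4827 and 4892 normalised counts in untreated 4T1 and 10300 and 10520 after 17-DMAG, a log2 fold change of 1.10 ± 0.0332 (SE, edgeR adjusted p = 9.5e-28). In 4T1R1 it went from 6387, 6141 and 6333 to 7295, 7722 and 7288 (0.24 ± 0.0302, edgeR adjusted p = 4.67e-08). In 4T1R2 the values were 6261, 5987 and 6045 before and 6837, 6906 and 6829 after exposure (0.17 ± 0.0304, edgeR adjusted p = 0.000123). No group overlapped its treated counterpart, and every resistant library, treated or not, lay between the untreated and the treated parental libraries.

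Atf5, a leucine zipper factor translated under the same control as ATF4, was at 857.6, 758.7 and 739.2 in untreated 4T1 and at 3706 and 3771 in treated 4T1, 4.76 times higher (log2 2.25 ± 0.0591, edgeR adjusted p = 8.51e-30). Untreated 4T1R1 gave 1619, 1687 and 1665 and treated 4T1R1 2031, 2086 and 2354 (0.38 ± 0.0522). Untreated 4T1R2 gave 963.9, 992.4 and 976.5 and treated 4T1R2 1296, 1160 and 1220 (0.33 ± 0.0577). The resistant populations thus started from different levels, with 4T1R2 below 4T1R1 by a log2 fold change of -0.76 ± 0.0566 (edgeR adjusted p = 2.42e-14), and neither reached treated 4T1 in any library.

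Ddit3, which encodes the proapoptotic factor CHOP, was the least abundant of the 3. It was at 116, 80.14 and 114.1 normalised counts in untreated 4T1 and at 187.5 and 208.5 in treated 4T1 (log2 fold change 0.93 ± 0.146, edgeR adjusted p = 1.79e-06). In 4T1R1 the counts were 243.6, 287.8 and 261.9 without and 309.7, 302.6 and 298.8 with the drug, and in 4T1R2 they were 225.4, 289.5 and 281.8 without and 237.2, 245.8 and 259.6 with it. Neither resistant population passed the test for a response (0.20 ± 0.113 and -0.09 ± 0.115), and each of their libraries lay above every parental library, treated ones included. Exons of Ddit3 overlap those of Mars on the opposite strand over 68 bases, and those of Atf5 overlap Nup62 over 82 bases. The strand setting of the counting was not given in the sources used here, so reads in these stretches cannot be assigned with certainty.

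The regulators and effectors held the widest changes. Trib3, a pseudokinase that restrains ATF4 and AKT signaling, was at 204, 242.6 and 235 in untreated 4T1 and at 1480 and 1501 after 17-DMAG, a 6.56-fold difference (log2 2.71 ± 0.0841, edgeR adjusted p = 2.57e-27). Its counts in 4T1R1 were 799, 784.3 and 890.5 without and 1107, 1191 and 1276 with the drug (0.53 ± 0.0677, edgeR adjusted p = 8.13e-08). In 4T1R2 they were 568.7, 592.1 and 507.6 without and 665.3, 600.7 and 666.6 with it (0.21 ± 0.0747, edgeR adjusted p = 0.0626). The groups of 4T1R2 did not overlap, yet the call was missed, and it was made without treated replicate 2 (0.26) and with no filter on low counts (0.22).

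Chac1, a glutathione-degrading enzyme and an ATF4 and CHOP target, followed the same order, from 205.1, 196.6 and 176.5 to 1018 and 1062 in 4T1 (2.43 ± 0.0852, edgeR adjusted p = 1.92e-25). In 4T1R1 it went from 813.6, 740.5 and 752.2 to 913.6, 990.3 and 995.9 (0.33 ± 0.0669), and in 4T1R2 from 457.5, 486.4 and 519.3 to 682, 619.7 and 620 (0.40 ± 0.073). Untreated 4T1R1 was at 3.99 times the untreated parental level, and treated 4T1R1 stopped just short of treated 4T1 without overlap.

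Sesn2, a leucine sensor that inhibits mTORC1, was at 155.4, 187 and 137.5 in untreated and at 459.1 and 551.9 in treated 4T1 (1.66 ± 0.121, edgeR adjusted p = 8.05e-15). Its counts were 352.7, 402.6 and 387.2 in untreated 4T1R1 and 437.2, 408.4 and 400.6 in treated 4T1R1, and 284.8, 258.2 and 323.9 in untreated and 296.5, 273.5 and 345.2 in treated 4T1R2. The responses of 0.13 ± 0.102 and 0.07 ± 0.109 in the resistant cells did not pass the test, and that in 4T1R2 changed sign without treated replicate 3 (-0.02).

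Ddit4 and Ppp1r15a departed from this order. Ddit4, which encodes the mTORC1 inhibitor REDD1, was at 454.7, 444.5 and 446.7 in untreated and at 466.7 and 533.6 in treated 4T1 (0.15 ± 0.0893, edgeR adjusted p = 0.199). In 4T1R1 it fell from 651.9, 780.1 and 733.6 to 572.3, 621 and 639.6 (-0.24 ± 0.0749, edgeR adjusted p = 0.0129), a call that was lost without untreated replicate 2 (-0.18) or treated replicate 1 (-0.19). In 4T1R2, where it was highest, the counts were 1215, 1266 and 1063 without and 1079, 1020 and 1134 with the drug. Ppp1r15a, whose product GADD34 directs the dephosphorylation of eIF2α, was at 401.9, 406.1 and 531.5 in untreated and 399.5 and 474.2 in treated 4T1. It was at 725.9, 693.5 and 610.1 in untreated and 602.1, 612.6 and 523.4 in treated 4T1R1, and at 631.1, 567.3 and 657.3 in untreated and 567.1, 566.1 and 506.9 in treated 4T1R2. None of its 3 responses passed the test (-0.04 ± 0.107, -0.22 ± 0.0895 and -0.18 ± 0.0909), although that in 4T1R1 did without untreated replicate 3 (-0.29), with no filter on low counts (-0.22) and with only the compared groups in the fit (-0.22), and that in 4T1 changed sign without untreated replicate 3 (0.10).

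The 5 enzymes of amino acid and one-carbon metabolism all rose in 4T1. Asns, asparagine synthetase, was at 2192, 2481 and 2423 in untreated and at 8799 and 9643 in treated 4T1, 3.90 times higher (1.96 ± 0.0421, edgeR adjusted p = 1.05e-32). It went from 5325, 5123 and 5151 to 6755, 7163 and 6837 in 4T1R1 (0.41 ± 0.037) and from 4314, 4314 and 4167 to 5257, 5104 and 5092 in 4T1R2 (0.27 ± 0.038). Each of the 6 groups was thus separate from the others for Asns, except that untreated 4T1R1 and treated 4T1R2 overlapped, with treated 4T1 on top.

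Mthfd2, the mitochondrial methylene-tetrahydrofolate dehydrogenase, showed almost no difference between untreated populations but a wide one in response. It was at 2528, 2613 and 2514 in untreated 4T1, at 2711, 2696 and 2802 in untreated 4T1R1 and at 2782, 2767 and 2761 in untreated 4T1R2. After 17-DMAG it was at 7369 and 7495 in 4T1 (1.54 ± 0.0391, edgeR adjusted p = 3.19e-30), at 3585, 3948 and 3697 in 4T1R1 (0.45 ± 0.0367), and at 3369, 3482 and 3367 in 4T1R2 (0.30 ± 0.037). Treated libraries lay above untreated ones in each population.

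Psat1, a transaminase of serine synthesis, behaved alike, with 9657, 9823 and 9782 in untreated and 21160 and 21690 in treated 4T1 (1.14 ± 0.0296, edgeR adjusted p = 6.83e-30). Its counts were 10900, 10570 and 10450 in untreated and 12420, 12760 and 13040 in treated 4T1R1 (0.26 ± 0.0271), and 11800, 11340 and 11670 in untreated and 13260, 13010 and 13360 in treated 4T1R2 (0.19 ± 0.0271). Shmt2, mitochondrial serine hydroxymethyltransferase, was at 5953, 6200 and 6103 in untreated and 10070 and 10520 in treated 4T1 (0.76 ± 0.0406, edgeR adjusted p = 4.62e-19). In 4T1R1 it was at 7151, 7577 and 6888 without and 6966, 7651 and 7726 with the drug (0.05 ± 0.037), and in 4T1R2 at 7735, 7706 and 7558 without and 8400, 7881 and 8707 with it (0.12 ± 0.0368, edgeR adjusted p = 0.0288). That last call was lost under total-count scaling (0.07) and without any of untreated replicates 1, 2 and 3 (0.13, 0.12 and 0.11) or treated replicates 1 and 3 (0.11 and 0.09). Phgdh, the first enzyme of serine synthesis, rose by 0.46 ± 0.0388 in 4T1, by 0.10 ± 0.0356 in 4T1R1 and had 0.05 ± 0.0352 in 4T1R2. Its call in 4T1R1 was lost without untreated replicate 1 or 3 (0.10 and 0.08) and without treated replicate 2 or 3 (0.09 and 0.07).

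Over the 13 genes, 8 rose and 1, Ddit4, fell in 4T1R1 (13.9% and 14.3% of all genes were called higher and lower there), with a median log2 fold change of 0.242. In 4T1R2, 7 rose and the other 6 did not pass (6.18% of all genes were called higher), with a median of 0.169. As a mean log2 level over the 13 genes relative to untreated 4T1, treated 4T1 libraries stood at 1.26 and 1.36, 4T1R1 moved from 0.80 to 0.84 untreated to 0.98 to 1.04 treated, and 4T1R2 from 0.69 to 0.70 to 0.79 to 0.85. The median over the same genes moved the other way in 4T1R1, from 0.70 to 0.80 untreated to 0.59 to 0.67 treated.

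The difference in response was then tested directly, as an interaction between population and treatment. It was negative and called for 12 of the 13 integrated stress response genes in 4T1R1 against 4T1 (9.08% of all genes were called lower) with a median of -0.875, Ppp1r15a being the exception at -0.18 ± 0.139. In 4T1R2 against 4T1 it was called lower for 11 of 13 (8.16% of all genes), with a median of -1.02, and Ddit4 (-0.28 ± 0.112) and Ppp1r15a (-0.14 ± 0.14) did not pass. Trib3 differed most, by -2.18 ± 0.109 in 4T1R1 and -2.50 ± 0.114 in 4T1R2. Chac1 differed by -2.10 ± 0.11 and -2.04 ± 0.114, Atf5 by -1.87 ± 0.0793 and -1.93 ± 0.0833, and Asns by -1.55 ± 0.0562 and -1.69 ± 0.0569. The Ddit4 difference in 4T1R1 (-0.39 ± 0.117) was lost without treated 4T1 replicate 3 (-0.30), without treated 4T1R1 replicate 1 (-0.345) and under total-count scaling (-0.24), and that in 4T1R2 was called without untreated 4T1R2 replicate 3 (-0.35). The signed change in normalised counts (treated minus untreated) was below that of 4T1 for 13 of 13 genes in 4T1R1 and 13 of 13 in 4T1R2, for example 1264 counts for Trib3 in 4T1 against 366.4 in 4T1R1 and 88.1 in 4T1R2. This count rests on the same libraries as the interactions, so it is not separate support for them, and it was not made over all genes. For Ddit4 (51.5 in 4T1, -110.8 in 4T1R1 and -104 in 4T1R2) and Ppp1r15a (-9.7, -97.2 and -71.8) the resistant changes were negative and larger in size than that of 4T1. Both interactions use the same untreated and treated 4T1 libraries, so they are not independent of each other.

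**Figure D2:**
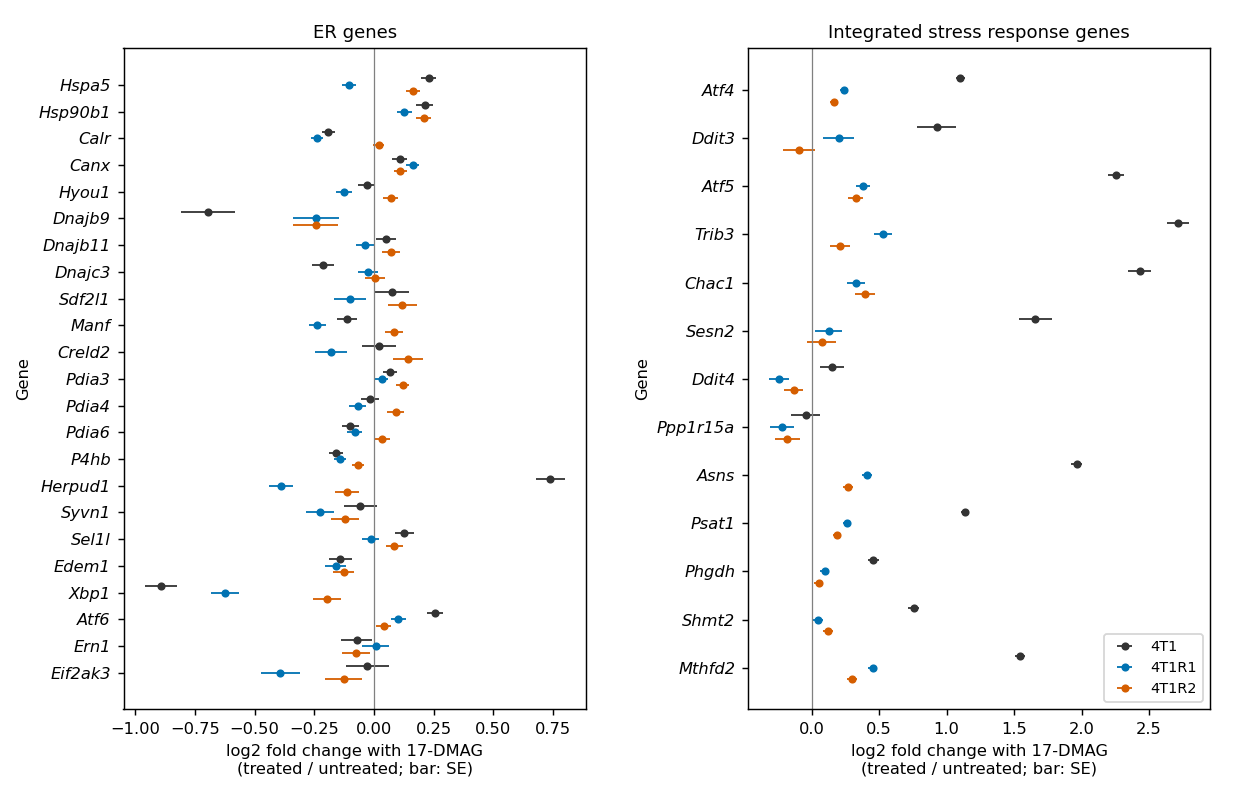
Log2 fold change with 17-DMAG (treated over untreated, bar the SE) for each ER gene (left) and each integrated stress response gene (right) in 4T1, 4T1R1 and 4T1R2, on separate axes. In the right panel the parental values of 10 genes exceed 0.5 while those of the resistant populations stay under 0.55, and in the left panel Herpud1, Xbp1 and Dnajb9 stand apart.

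The populations also differed before any drug was added. In untreated cells, 12 of the 13 integrated stress response genes had more counts in 4T1R1 than in parental cells (25.2% of all genes were called higher) and Phgdh was lower (-0.15 ± 0.0356, where 27.5% of all genes were called lower), with a median of 0.685. In 4T1R2 all 13 were higher (25.6% of all genes were called higher), with a median of 0.47. The largest differences were Chac1 in 4T1R1, at 2.00 ± 0.0815 (edgeR adjusted p = 2.18e-23), and Ddit4 in 4T1R2, at 1.40 ± 0.0754 (edgeR adjusted p = 2.73e-19). These comparisons share the untreated 4T1 libraries. In 4T1R1 the libraries of 9 genes lay between those of untreated and treated 4T1 with no overlap, and in 4T1R2 those of 10 did. Ddit3, Ddit4 and Ppp1r15a lay above both parental groups in each. Such placements were not counted over all genes, so whether they are more frequent among these 13 cannot be told.

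The steps differed among the genes. Trib3 was higher by 1.86 ± 0.0823 in 4T1R1 and 1.29 ± 0.087 in 4T1R2, Ddit3 by 1.35 ± 0.129 and 1.35 ± 0.131, Sesn2 by 1.25 ± 0.115 and 0.86 ± 0.12, Asns by 1.14 ± 0.0396 and 0.85 ± 0.0402, Atf5 by 1.08 ± 0.0574 and 0.32 ± 0.0612, Ddit4 by 0.69 ± 0.0776 in 4T1R1, Ppp1r15a by 0.60 ± 0.0919 and 0.47 ± 0.0939, and Atf4 by 0.37 ± 0.0308 and 0.33 ± 0.031. Among the enzymes of serine and one-carbon metabolism, Shmt2 was at 0.24 ± 0.0373 and 0.33 ± 0.0374, Psat1 at 0.13 ± 0.0273 and 0.25 ± 0.0274, and Mthfd2 at 0.10 ± 0.0376 and 0.12 ± 0.0379. The Mthfd2 call in 4T1R1 was lost without untreated 4T1 replicate 1 or 3 (0.09 each) or untreated 4T1R1 replicate 3 (0.08). Between the resistant populations, 3 of the 13 were higher in 4T1R2 (19.7% of all genes were called higher) and 5 were higher in 4T1R1 (19% of all genes were called lower in 4T1R2). Ddit4 was 0.71 ± 0.0711 higher in 4T1R2, and Atf5, Chac1, Trib3, Sesn2 and Asns were lower there by -0.76 ± 0.0566, -0.66 ± 0.0723, -0.57 ± 0.0735, -0.40 ± 0.107 and -0.29 ± 0.0381.

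The ER genes were the more abundant arm. In CPM per kilobase of exon, Hspa5 led the 36 genes in untreated 4T1 at 347.5 ± 3.46 (SD, n = 3), followed by Calr at 293.4 ± 1.51, P4hb at 231.4 ± 7.11, and Hsp90b1 and Canx at 188.3 ± 7.0 and 186.7 ± 4.55, the last 2 of which did not differ beyond their spread. Sesn2 was lowest at 1.487 ± 0.233, and Trib3, Chac1 and Ddit3 were at 3.453 ± 0.310, 3.802 ± 0.290 and 1.950 ± 0.380. The ER genes together made up 6779 to 6853 CPM in untreated and 6996 to 7208 CPM in treated 4T1, and the integrated stress response genes 1129 to 1175 and 2454 to 2545 CPM. The TMM factors were 0.99681, 1.0005 and 1.0025 in untreated and 0.92086 and 0.9248 in treated 4T1. A difference as small as that of the ER sum thus depends on the scaling.

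**Figure D3:**
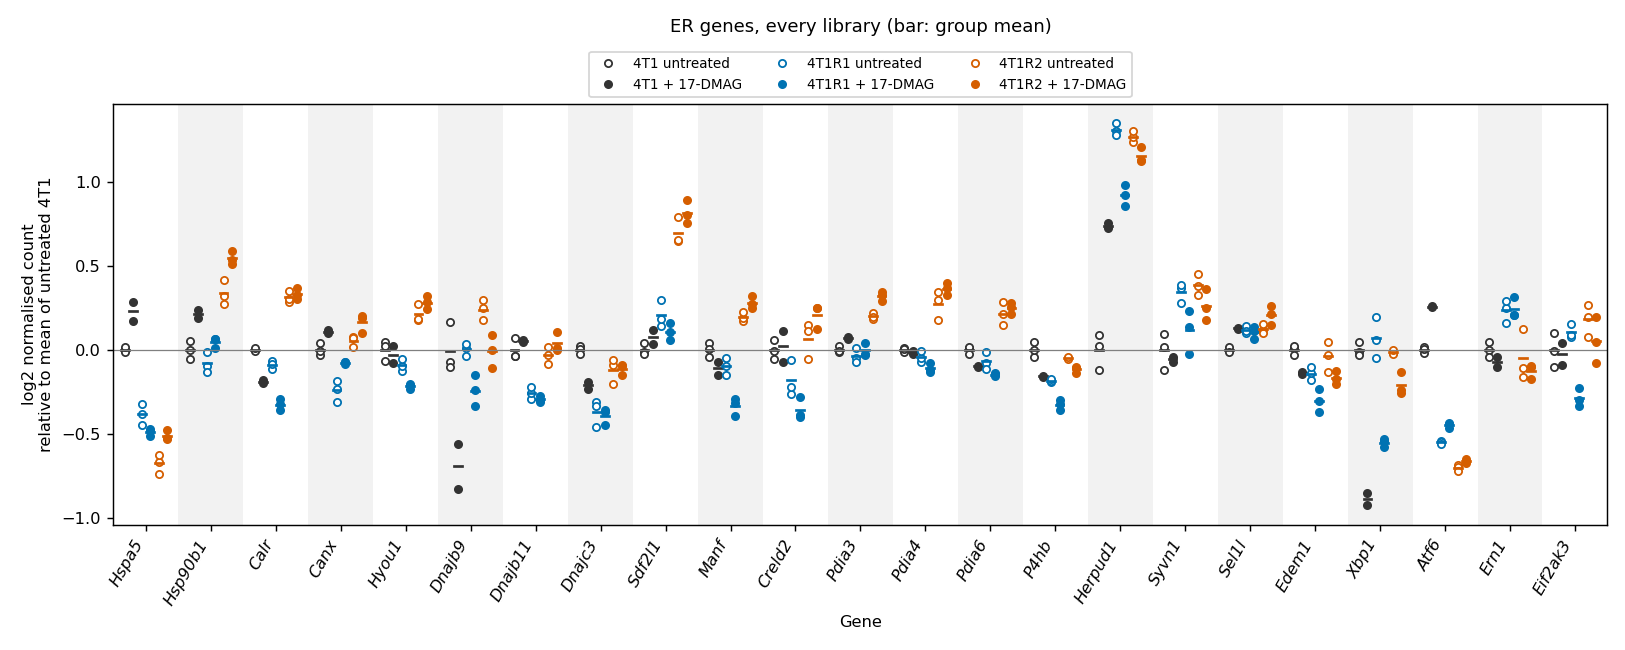
Every library of the 23 ER genes, as log2 normalised count relative to the mean of untreated 4T1 (open symbols untreated, filled symbols 17-DMAG, bar the group mean). Most genes stay near 0, whereas Herpud1 is up and Hspa5 and Atf6 are down in the resistant libraries, and Xbp1 and Dnajb9 are lowest in treated 4T1.

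Hspa5, which encodes the master chaperone BiP, had 45570, 45030 and 45930 normalised counts in untreated 4T1 and 51250 and 55510 after 17-DMAG, a difference of 17.3% (log2 fold change 0.23 ± 0.0324, edgeR adjusted p = 2.01e-07). Its counts in 4T1R1 were 34890, 33320 and 36390 without and 32600, 32840 and 31860 with the drug (-0.10 ± 0.0293, edgeR adjusted p = 0.00591). In 4T1R2 they were 27290, 28660 and 29520 without and 32690, 31570 and 31450 with it (0.16 ± 0.0294, edgeR adjusted p = 0.000122). BiP transcripts therefore went up in 4T1 and 4T1R2 and down in 4T1R1, and every resistant library stayed below every parental one. The fall in 4T1R1 was not called without untreated replicate 3 (-0.07) or under total-count scaling (-0.07). The interaction was -0.33 ± 0.0437 for 4T1R1 (edgeR adjusted p = 1.9e-07) and -0.07 ± 0.0438 for 4T1R2 (edgeR adjusted p = 0.335).

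Hsp90b1 encodes GRP94, the ER member of the HSP90 family and itself a target of geldanamycin derivatives. It was at 24380, 22640 and 23520 in untreated 4T1 and at 26770 and 27740 in treated 4T1 (0.21 ± 0.0351, edgeR adjusted p = 4.03e-06). In 4T1R1 the counts were 21980, 21410 and 23310 without and 24610, 24550 and 23700 with the drug (0.13 ± 0.0316, edgeR adjusted p = 0.00196), and in 4T1R2 they were 28350, 29340 and 31340 without and 35270, 34060 and 33520 with it (0.21 ± 0.0314, edgeR adjusted p = 7.33e-06). Treated libraries lay above untreated ones in all 3 populations. The differences between the responses did not pass the test, at -0.09 ± 0.0473 for 4T1R1 (edgeR adjusted p = 0.235) and -0.0045 ± 0.0472 for 4T1R2 (edgeR adjusted p = 0.973).

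Both cytosolic HSP90 genes had larger changes than Hsp90b1, and the mitochondrial one did not. Hsp90aa1, the stress-inducible cytosolic form, was at 55200, 52180 and 54400 in untreated 4T1 and at 211500 and 219800 in treated 4T1 (2.00 ± 0.0275, edgeR adjusted p = 4.99e-40), and rose by 1.40 ± 0.0253 in 4T1R1 and 0.88 ± 0.025 in 4T1R2. Hsp90ab1, the constitutive cytosolic form, rose by 0.96 ± 0.0215, 0.65 ± 0.0196 and 0.44 ± 0.0195. Trap1, the mitochondrial form, rose by 0.16 ± 0.0405 in 4T1 and was at 0.01 ± 0.0364 and -0.0024 ± 0.0362 in the resistant populations. The responses of Hsp90aa1 differed from that of 4T1 by -0.60 ± 0.0371 and -1.12 ± 0.037, where the differences for Hsp90b1 did not pass. In the untreated state Hsp90b1 was 0.34 ± 0.0316 higher in 4T1R2 than in 4T1 (edgeR adjusted p = 5.72e-12), and -0.08 ± 0.0316 in 4T1R1 (edgeR adjusted p = 0.0299). The latter was not called without untreated 4T1 replicate 1 or 3 (-0.05 and -0.08), without untreated 4T1R1 replicate 1 or 2 (-0.07 and -0.05), by DESeq2 (-0.08), with total counts (-0.05) or with only the compared groups in the fit (-0.07).

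**Figure D4:**
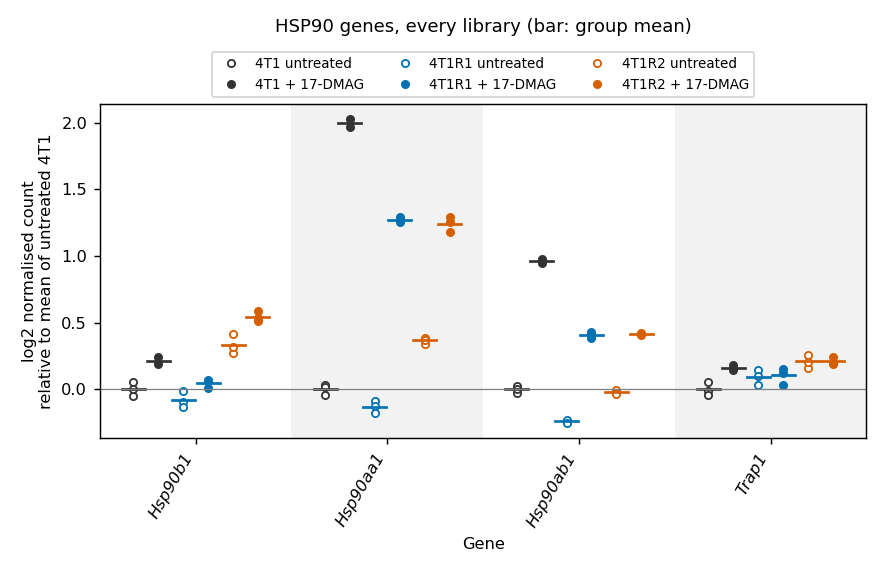
Every library of the 4 HSP90 genes, as log2 normalised count relative to the mean of untreated 4T1 (open symbols untreated, filled symbols 17-DMAG, bar the group mean). Hsp90aa1 reaches about 2 in treated 4T1, whereas Hsp90b1, the ER form, stays under 0.6 in all groups and is highest in treated 4T1R2.

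Among the other chaperones and cofactors, Dnajb9 had the largest change in 4T1. Calr, calreticulin, fell by 0.19 in 4T1 (-0.19 ± 0.0277) and by 0.24 in 4T1R1 (-0.24 ± 0.0247) and had 0.02 ± 0.0245 in 4T1R2, while its membrane-bound relative Canx, calnexin, had 0.11 ± 0.0314, 0.16 ± 0.0282 and 0.11 ± 0.0281. The Canx call in 4T1 was lost without treated replicate 2 (0.08) and the sign turned under total-count scaling (-0.01), and the call in 4T1R2 was lost without untreated replicate 1 (0.09), without treated replicates 1 or 2 (0.10 and 0.09) and under total-count scaling (0.06). Dnajb9, the BiP cochaperone ERdj4 and a target of spliced XBP1, was at 373.9, 317.4 and 311.1 in untreated and at 188.3 and 226.8 in treated 4T1 (-0.70 ± 0.113, edgeR adjusted p = 3.23e-06). Its counts were 325.4, 336.9 and 341.7 in untreated and 301, 282.5 and 264.5 in treated 4T1R1, and 396.1, 409.5 and 377.7 in untreated and 354.9, 333.2 and 310 in treated 4T1R2. In both resistant populations the treated libraries lay below the untreated ones without overlap, but -0.24 ± 0.0973 and -0.24 ± 0.0941 did not pass the test (edgeR adjusted p = 0.059 and 0.0923), and the second did under total-count scaling (-0.29).

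Sdf2l1, a component of the BiP chaperone complex, did not pass in any response, and was the ER chaperone cofactor with the largest increase in the untreated resistant state. It was at 590.4, 611.2 and 585.1 in untreated 4T1, at 656.7, 674.8 and 731.7 in untreated 4T1R1 (0.21 ± 0.0669, edgeR adjusted p = 0.00803, not called without 4T1R1 replicate 3 at 0.16) and at 934.1, 1028 and 937.9 in untreated 4T1R2 (0.70 ± 0.0658, edgeR adjusted p = 6.06e-12). After 17-DMAG it was at 610 and 645.9 in 4T1, at 641.4, 618.9 and 666.2 in 4T1R1 and at 1040, 1003 and 1104 in 4T1R2. All libraries of 4T1R2 were thus above all others.

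The remaining chaperones, isomerases and the mannosidase-like Edem1, which passes misfolded glycoproteins on to degradation, were given by range. Across Hyou1, Dnajb11, Dnajc3, Manf, Creld2, Pdia3, Pdia4, Pdia6, P4hb and Edem1 the 3 responses lay between -0.24 (Manf in 4T1R1, ± 0.0373) and 0.14 (Creld2 in 4T1R2, ± 0.0632). Dnajc3, a cochaperone of BiP that also inhibits eIF2α kinases, fell in 4T1 (-0.21 ± 0.0454) and was at -0.03 ± 0.0416 and 0.01 ± 0.0407 in the resistant populations. P4hb, the abundant disulfide isomerase, fell in 4T1 (-0.16 ± 0.0284) and 4T1R1 (-0.14 ± 0.0254) and was at -0.07 ± 0.0253 in 4T1R2. Manf, a secreted stress factor, also fell in 4T1 (-0.11 ± 0.041), a call lost without untreated replicate 1 or 3 (-0.09 and -0.11). Edem1 fell in 4T1 (-0.14 ± 0.0486, lost without untreated or treated replicate 3, at -0.13 and -0.14) and in 4T1R1 (-0.16 ± 0.0442, lost without treated replicate 2, at -0.12).

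Among the genes of ER-associated degradation, Herpud1, a ubiquitin-like membrane protein of the retrotranslocation complex, stood apart from the other ER genes. It was at 748.9, 716 and 649.5 in untreated 4T1 and rose to 1162 and 1190 with 17-DMAG (0.74 ± 0.0614, edgeR adjusted p = 3.62e-13). Untreated 4T1R1 was already at 1737, 1794 and 1708 and fell to 1334, 1390 and 1273 with the drug (-0.39 ± 0.0508, edgeR adjusted p = 1.16e-07). Untreated 4T1R2 was at 1657, 1697 and 1738 and treated 4T1R2 at 1536, 1541 and 1629 (-0.11 ± 0.0503, edgeR adjusted p = 0.158, called with total counts at -0.16). The untreated differences from 4T1 were 1.31 ± 0.0544 and 1.27 ± 0.055, and the interactions were -1.13 ± 0.0797 (edgeR adjusted p = 1.82e-14) and -0.85 ± 0.0794 (edgeR adjusted p = 3.61e-11). Herpud1 was the only ER gene whose promoter window held a CARE, 1 of 20 (5%) against 4.51% of all windows. Whether the match bears on its values was not tested. Syvn1, the ubiquitin ligase HRD1, was higher in untreated 4T1R1 (0.34 ± 0.0609) and 4T1R2 (0.38 ± 0.0615) than in 4T1 and fell in 4T1R1 with the drug (-0.23 ± 0.0605, lost without treated replicate 2 at -0.16), and its exons overlap those of Mrpl49 on the opposite strand over 91 bases. Sel1l, its scaffold partner, was higher by 0.12 ± 0.0352 and 0.12 ± 0.0355.

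The sensors and transcription factors of the ER did not move as 1 group. Xbp1, which encodes the factor made active by IRE1 splicing, was at 1223, 1175 and 1157 in untreated 4T1 and at 623.2 and 655.6 in treated 4T1 (-0.89 ± 0.0688, edgeR adjusted p = 4.08e-14). It fell from 1234, 1147 and 1354 to 818.7, 792.4 and 812.2 in 4T1R1 (-0.62 ± 0.0593, edgeR adjusted p = 6.65e-11) and from 1170, 1166 and 1185 to 1082, 991 and 1002 in 4T1R2 (-0.20 ± 0.0583, edgeR adjusted p = 0.0228). The untreated populations overlapped, and treated ones were below untreated ones in each. The call in 4T1R2 was lost without any of untreated replicates 1, 2 and 3 (-0.20, -0.20 and -0.19) or treated replicates 2 and 3 (-0.17 and -0.18). The fall was weaker in 4T1R2 than in 4T1 by 0.70 ± 0.09 (edgeR adjusted p = 1.04e-07), and in 4T1R1 by 0.27 ± 0.0907 (edgeR adjusted p = 0.0332). The latter was lost without untreated 4T1 replicate 1 (0.24), treated 4T1 replicate 3 (0.30), untreated 4T1R1 replicate 1 or 2 (0.26 and 0.21) or treated 4T1R1 replicate 1 or 3 (0.26 each). Counts per gene do not separate spliced from unspliced Xbp1.

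Atf6, which encodes the sensor that is cleaved in the Golgi, was at 6240, 6089 and 6193 in untreated 4T1 and at 7381 and 7361 in treated 4T1 (0.26 ± 0.0327, edgeR adjusted p = 2.54e-08). It was at 4236, 4223 and 4190 in untreated and 4547, 4463 and 4565 in treated 4T1R1 (0.10 ± 0.0306, edgeR adjusted p = 0.0102), and at 3832, 3799 and 3746 in untreated and 3903, 3936 and 3870 in treated 4T1R2 (0.04 ± 0.0311). The untreated resistant populations were lower than 4T1 by -0.55 ± 0.0302 and -0.70 ± 0.0307 with no overlap. The interaction for 4T1R1 (-0.15 ± 0.0449) was lost without treated 4T1 replicate 3 (-0.15) and with total counts (-0.0038). Ern1, which encodes IRE1, did not pass in any response and was 0.23 ± 0.0571 higher in untreated 4T1R1. Eif2ak3, which encodes PERK, fell in 4T1R1 with the drug (-0.39 ± 0.0808, edgeR adjusted p = 0.000236) and did not pass in the other responses.

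Over all 23 ER genes, 3 rose and 11 fell in 4T1R1 with 17-DMAG, with a median of -0.104 (13.9% and 14.3% of all genes), whereas in 4T1R2 4 rose (6.18% of all genes) and 1, Xbp1, fell (4.35%), with a median of 0.0414. These 2 counts depend on the scaling and on single libraries: with total counts 2 rose and 5 fell in 4T1R2, and without untreated replicate 2 or 3 or treated replicate 2 or 3 of 4T1R2 the count of falling genes was 0 in edgeR, with 5 at an unadjusted p under 0.05 in the full fit and 3 by DESeq2. The 8 falling in 4T1 were 5 without untreated 4T1 replicate 3. In the untreated state, 5 of the 23 were higher and 12 lower in 4T1R1 than in 4T1 (25.2% and 27.5% of all genes), median -0.0807, while 13 were higher and 3 lower in 4T1R2 (25.6% and 26.9%), median 0.184. Against 4T1R1, 14 were higher in 4T1R2 and 3 lower (19.7% and 19%), median 0.236, and the 14 include all 4 disulfide isomerases (Pdia3, Pdia4, Pdia6 and P4hb) and 10 of the 11 chaperones and cofactors, with Hspa5 the exception at -0.29 ± 0.0294. The Dnajb9 call among them (0.24, edgeR adjusted p = 0.0449) was lost without any of the 6 untreated libraries of 4T1R1 and 4T1R2 (0.21 to 0.26, adjusted p = 0.0501 to 0.124) and with the replicate block (0.23, adjusted p = 0.0541). Its call in 4T1R2 against 4T1 was lost without untreated 4T1 replicate 2 or 3 (0.20 and 0.19) or untreated 4T1R2 replicate 1 or 2 (0.24 and 0.21). By level, Hsp90b1 and Calr were 0.42 ± 0.0316 and 0.40 ± 0.0246 higher in 4T1R2 than in 4T1R1.

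The interaction was called for 30.4% of the 23 ER genes in 4T1R1 and 34.8% in 4T1R2, against 18.2% and 17.8% of all genes. Against 4T1, 3 were called higher and 4 lower in 4T1R1 (9.16% and 9.08% of all genes), and 6 higher and 2 lower in 4T1R2 (9.62% and 8.16%). With total counts as the only scaling the first pair was 8 and 2, with a median over all genes of 0.146. The 3 called higher in 4T1R1 (Dnajb9, Dnajc3 and Xbp1) fell to 0 or 1 without untreated replicate 1 of 4T1 (0), treated replicate 3 of 4T1 (1), untreated replicate 1 or 2 of 4T1R1 (1 each) or treated replicate 1 of 4T1R1 (0), and the 4 called lower fell to 2 without treated replicate 3 of 4T1. Dnajb9 differed by 0.45 ± 0.15 in 4T1R1 and 0.45 ± 0.147 in 4T1R2. The first was lost without untreated 4T1 replicate 1 (0.37), untreated 4T1R1 replicate 1 (0.44) or treated 4T1R1 replicate 1 (0.41), and the second without untreated 4T1 replicate 1 (0.36), untreated 4T1R2 replicate 3 (0.43) or treated 4T1R2 replicate 1 (0.40).

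The ER genes were also read by presence of the ER stress element. In 4T1 the 8 genes with the element ranged from -0.212 to 0.23 around a median of -0.0179, and the 12 with a window but without it from -0.892 to 0.739 around a median of -0.0217. The medians with and without it were -0.0921 and -0.121 for 17-DMAG in 4T1R1, and 0.0729 and -0.0722 for 17-DMAG in 4T1R2. In the untreated state they were -0.134 and 0.0378 in 4T1R1 against 4T1, and 0.14 and 0.154 in 4T1R2 against 4T1. The ranges of genes with and without the element overlapped in all 5 comparisons.

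Of the integrated stress response genes, the 3 with a CARE in the window (Trib3, Chac1 and Asns) had a median of 2.43 in 4T1 and the 10 without it 1.01, with values up to 2.25 (Atf5). The medians were 0.412 and 0.164 for 17-DMAG in 4T1R1, and 0.272 and 0.0965 for 17-DMAG in 4T1R2. In the untreated state they were 1.86 and 0.485 in 4T1R1 against 4T1, and 1.29 and 0.332 in 4T1R2 against 4T1. No test was made of either element, since the groups were formed after the values were known.

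Other genes of the same pathways, from lists outside the 36, were read in the same fit. These lists were also chosen with earlier results of these data known. Of 36 other ATF4 target genes, 34 were tested. In 4T1, 30 rose (18.4% of all genes) and the other 4 did not pass, with a median of 1.05 over the 34. Those that rose were led by the alanine transaminase Gpt2 (2.34 ± 0.065), the cystine transporter Slc7a11 (2.33 ± 0.0592) and mitochondrial PEP carboxykinase Pck2 (1.90 ± 0.0637). In 4T1R1, 23 rose and 1, Cebpb, fell (-0.43 ± 0.0499), with a median of 0.198 (13.9% and 14.3% of all genes). In 4T1R2, 20 rose and 1 fell, with a median of 0.168 (6.18% and 4.35% of all genes). Slc7a11 went in 4T1R2 from 6557, 7055 and 7045 normalised counts untreated to 6276, 6177 and 5855 treated, without overlap. Their interactions were called lower for 29 of 34 in 4T1R1 and 30 of 34 in 4T1R2 (9.08% and 8.16% of all genes), with medians of -0.901 and -0.879. In the untreated state 25 were higher and 4 lower in 4T1R1 (25.2% and 27.5% of all genes). In untreated 4T1R2, 22 were higher and 5 lower (25.6% and 26.9%). Slc7a11 was 2.74 ± 0.0543 and 3.69 ± 0.0533 above untreated 4T1 in the 2 populations. Genes of this list with a CARE in the window (14 of 26, 53.8%) had a median of 1.07 in 4T1 over the 13 tested and those without it 1.2 over 11. In the untreated state these medians were 0.47 and 0.35 in 4T1R1 against 4T1, and 0.209 and 0.365 in 4T1R2 against 4T1.

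Of 32 other genes of ER folding, translocation and degradation, 4 rose and 10 fell in 4T1, with a median of -0.0673, so that 43.8% were called against 36.4% of all genes. Fkbp14, an ER prolyl isomerase, was at -0.998 ± 0.208, the membrane-bound factor Creb3l2 at -0.86 ± 0.119 and the oxidase Ero1l at 0.34 ± 0.044. In 4T1R1, 1 rose and 6 fell (13.9% and 14.3% of all genes). In 4T1R2 their median was -0.0381, no gene was called by edgeR or DESeq2, and 1 reached an unadjusted p under 0.05 in edgeR. Untreated 4T1R1 had 3 higher and 15 lower than 4T1 (25.2% and 27.5% of all genes), and untreated 4T1R2 8 higher and 12 lower (25.6% and 26.9%), with the retrotranslocation protein Derl1 at -0.93 ± 0.036. Of 9 eIF2α kinases, phosphatase subunits and initiation factors, 1 rose and 1 fell in 4T1 (22.2% called, against 36.4% of all genes). In 4T1R1, 2 rose and 1 fell (33.3% called, against 28.2% of all genes), and in 4T1R2 1 rose (11.1% called, against 10.5%). Ppp1r15b, the constitutive partner of the eIF2α phosphatase, was the gene that rose in 4T1 (0.27 ± 0.0343) and in 4T1R2 (0.15 ± 0.0316), and it rose in 4T1R1 (0.16 ± 0.0311). In untreated 4T1R1, 1 of the 9 was higher and 7 lower than in 4T1 (25.2% and 27.5% of all genes). In untreated 4T1R2, 2 were higher and 4 lower (25.6% and 26.9%). The amino acid sensor Eif2ak4 was at -0.29 ± 0.0493 and -0.40 ± 0.0503 in these 2 comparisons.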

How the data were processed

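Total RNA was sequenced after ribosomal RNA depletion with a strand-marking (dUTP) kit. Per the labels and the methods of the study, the authors aligned reads to mm10 with STAR and counted them per gene with featureCounts (the submitters' processing notes name Subread 1.6.2 and bcl2fastq 2.20), and deposited raw counts for 24421 genes in 18 libraries (23354461 to 55094630 per library). The strand setting was not given in the sources used here. The authors' own tests used DESeq2.

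Here counts were fitted with edgeR 4.0.16 (R 4.3.3): TMM scaling, filterByExpr, 13507 genes, quasi-likelihood tests of group means over 17 libraries (2 of the 18 averaged), Benjamini-Hochberg adjustment, threshold 0.05. Where the text prints an adjusted p it is edgeR's. Alternatives were RLE scaling, total counts, no filter, at least 10 counts in every library, DESeq2 1.42.0, only the compared groups, 18 separate libraries, a replicate block, and each library left out.

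Every-library values were given for Hspa5, Hsp90b1, Xbp1, Atf4, Ddit3, Asns and for members called with an absolute log2 fold change of at least 0.5 and no overlap in a response or a resistant-against-4T1 comparison (19 genes). Up to 3 called genes with the largest change were named per other list. The members and lists were chosen with earlier results of these data known. Exon lengths are from GENCODE vM21 and promoters from RefSeq. Scripts were tested on simulated data. Libraries numbered alike in different groups did not deviate together (r of -0.022 to 0.0369 over 9 pairs), so the numbers were not treated as pairs.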

Additional observations from a re-analysis of the deposited data

Results flagged for a closer look

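By the interaction test of edgeR, the response to 17-DMAG differed between a resistant population and the parental line in 30 gene and population pairs. These came from the 19 genes whose values were given in every library, each tested in 2 populations. Over all genes, 18.2% were called in the 4T1R1 interaction and 17.8% in that of 4T1R2. The 19 were picked in part for changes of at least 0.5 in the same libraries, so the 30 is partly set by that choice. Values are the log2 response in the resistant population minus that in 4T1. Among the transcription factors, 4T1R1 and 4T1R2 differed by -0.86 and -0.93 for Atf4, by -0.73 and -1.02 for Ddit3, and by -1.87 and -1.93 for Atf5. Among regulators the differences were -2.18 and -2.50 for Trib3, -2.10 and -2.04 for Chac1, -1.53 and -1.58 for Sesn2, and -0.39 in 4T1R1 for Ddit4. Among the enzymes they were -1.55 and -1.69 for Asns, -0.88 and -0.95 for Psat1, -0.71 and -0.64 for Shmt2, and -1.09 and -1.24 for Mthfd2. Among the ER genes they were -1.13 and -0.85 for Herpud1, -0.15 and -0.21 for Atf6, 0.45 and 0.45 for Dnajb9, 0.27 and 0.70 for Xbp1, and -0.33 in 4T1R1 for Hspa5. All of these use the same untreated and treated 4T1 libraries, 1 of the treated values being the mean of 2 libraries. Groups held at most 3 libraries, so single outlying libraries were not tested for.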

How the results depend on the processing

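The 211 gene values kept their direction and their side of the threshold in 3074 of 3230 recomputations, were no longer called in 124, became called in 8 and changed sign in 24. With total counts as the only scaling, the all-gene median moved by -0.114 in 4T1, 4T1R2 had 2 ER genes higher and 5 lower (4 and 1 with TMM), and the 4T1R1 interaction had 8 higher and 2 lower (3 and 4). Calls over all genes were then 1193 higher and 4322 lower in 4T1 (2490 and 2423 with TMM), 2356 and 1316 in 4T1R1, 365 and 1146 in 4T1R2, and 3536 and 419 in the 4T1R1 interaction. Signs also turned there for Canx (-0.0084) and Sdf2l1 (-0.042) in 4T1, Atf6 in 4T1R2 (-0.0049), Xbp1 in 4T1R2 against 4T1 (0.0051), Hsp90b1 in the interactions (0.064 and 0.065) and Hspa5 in that of 4T1R2 (0.0027), of which Canx had been called. The number of ER genes lower in 4T1R2 (1) was 2 with at least 10 counts in every library, with only the compared groups and with 18 separate libraries, and 3 with DESeq2. The number of integrated stress response genes lower in 4T1R1 (1) was 2 with no filter and with only the compared groups. The causes were not tested.

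Leaving out each library in turn gave 5 to 8 ER genes lower in 4T1, 0 to 1 lower in 4T1R2, 0 to 2 integrated stress response genes lower in 4T1R1, and in the 4T1R1 interaction 0 to 3 ER genes higher and 2 to 5 lower. Values near 0 that changed sign were the Hsp90b1 interaction of 4T1R2 (-0.0045, between -0.037 and 0.041 by library, and 0.0015, 0.0013, 0.013 and 0.013 with at least 10 counts, with the compared groups, with 18 libraries and with the replicate block), and, as ranges by library, Dnajb9 in 4T1R1 against 4T1 (-0.047 to 0.091), Xbp1 in 4T1R2 against 4T1 (-0.031 to 0.0094), Sdf2l1 (-0.0056 to 0.12) and Ppp1r15a (-0.17 to 0.10) in 4T1 and Sesn2 in 4T1R2 (-0.023 to 0.16). With the replicate block, 11 integrated stress response genes were higher in 4T1, as without it, and the block lost 1 call among the members (Dnajb9 in 4T1R2 against 4T1R1) and moved no count of calls by over 1.5 times. RLE scaling changed no call among these values. Averaged libraries leave treated 4T1 with 2 samples, so its spread rests on the pooled estimate.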
